A study of Mus musculus with 10 samples.

Results

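The Ly6 and uPAR surface family described here comprised 10 genes: Lypd3, Ly6d, Ly6e, Ly6a, Ly6c1, Ly6g6c, Slurp1, Plaur, Plau and Gpihbp1. They were 10 of the 19096 genes paired with a probe on the arrays. Lypd3 was selected on its large difference between SCC and WT in these same arrays, so its values are given as a description with no test, and the other 9 genes were named around it with earlier results of these data known. Plau encodes the ligand of the uPAR receptor rather than a Ly6 protein and was kept with its receptor. Each gene was read from the probe with the highest mean over all 10 arrays, and all 10 chosen probes were well above background on all 10 arrays.

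Gene expression was measured on single-colour Agilent whole-genome arrays in 5 lungs of wild-type (WT) mice and 5 lung squamous cell carcinomas (SCC), 1 array per sample. All mice were 13 months old, of strain B6.129 per the labels (the study's methods write it with a semicolon, as for a mixed background). The WT mice carried the floxed alleles without Cre (Lkb1f/f), and the tumours came from CCSPiCreLkb1f/f mice, in which the promoter of club cell secretory protein drives Cre in the airway epithelium and removes Lkb1, a tumour suppressor kinase. RNA was taken from whole lung and from whole tumour, so every value is a mixture of tumour or lung epithelium, vessels, stroma and blood cells, and the labels do not say whether any tumours shared a mouse. A lower value in such a mixture can come from fewer cells of a type or from less RNA per cell, and these cannot be told apart.

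The tissue labels were set against marker genes. Of 22 squamous genes tested, 21 were called higher in SCC and none was called lower, and 6 of the 22 were not well above background on any WT array. Of 20 endothelial genes tested, 19 were called lower and none was called higher. SCC replicate 2 stood apart. Averaged over the squamous list it reached 10.35 on the log2 scale, between the WT arrays at 6.06 to 6.21 and the other tumours at 13.36 to 13.67. Averaged over the endothelial list it was at 12.30, again between the other tumours at 11.38 to 11.74 and WT at 13.72 to 13.84. It correlated with the WT arrays across probes at r = 0.940 to 0.946, where the other SCC arrays reached 0.905 at most. SCC replicate 5 had 90.2% of its probes well above background against 71.0% to 74.5% on the other 9 arrays. Where leaving out SCC replicate 2 made or ended the call of a gene named below, the value without it is also given.

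Ly6 proteins share a small cysteine-rich domain, the LU domain, that folds into finger-like loops. Most members are held on the outer face of the plasma membrane by a glycosylphosphatidylinositol (GPI) lipid anchor, and a few, such as Slurp1, are secreted. The family includes markers of stem cells, leukocytes, endothelium and stratified epithelium, the complement inhibitor CD59, and uPAR, the receptor that gathers the protease urokinase at the cell surface. In normal lung several Ly6 genes are known from the capillary endothelium, whereas LYPD3 and LY6D are known from stratified squamous epithelium. Many mouse Ly6 genes lie in a cluster on chromosome 15, and in the order of protein-coding genes in RefSeq (GRCm38.p6) 6 of the 10 lay there, in the order Slurp1, Ly6d, Ly6e, Ly6a, Ly6c1 and Gpihbp1, with Gpihbp1 26 coding genes after Slurp1. Plaur and Lypd3 lay on chromosome 7, 9 coding genes apart, Ly6g6c lay on chromosome 17 and Plau on chromosome 14.

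The RefSeq promoter table held windows for Lypd3, Plaur, Ly6g6c and Ly6c1, each reaching from 250 bases before the annotated start to 50 bases after it. The windows of Lypd3 and Plaur are shown because these genes of chromosome 7 had differences between SCC and WT of 10.22 and 0.01 on the log2 scale, and that of Ly6g6c because it rose in SCC from another chromosome. The 3 motifs searched on both strands were the AP-1 motif TGANTCA, the TATA box TATAAA and the GC box GGGCGG, and capitals mark every match. The positions are chr7:24636320-24636619, plus strand, for Lypd3, chr7:24462233-24462532, plus strand, for Plaur and chr17:35067075-35067374, plus strand, for Ly6g6c, in GRCm38.p6.
Lypd3: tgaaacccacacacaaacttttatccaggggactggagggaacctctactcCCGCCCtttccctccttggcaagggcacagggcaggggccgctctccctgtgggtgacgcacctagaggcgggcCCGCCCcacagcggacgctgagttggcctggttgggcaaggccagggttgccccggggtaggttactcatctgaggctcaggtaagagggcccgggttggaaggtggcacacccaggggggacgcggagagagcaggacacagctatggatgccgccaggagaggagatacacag
Plaur: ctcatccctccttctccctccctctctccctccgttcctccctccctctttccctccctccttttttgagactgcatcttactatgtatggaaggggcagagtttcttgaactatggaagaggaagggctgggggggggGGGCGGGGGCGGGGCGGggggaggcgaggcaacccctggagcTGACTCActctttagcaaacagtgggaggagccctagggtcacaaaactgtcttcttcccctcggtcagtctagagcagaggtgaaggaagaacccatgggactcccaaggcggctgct
Ly6g6c: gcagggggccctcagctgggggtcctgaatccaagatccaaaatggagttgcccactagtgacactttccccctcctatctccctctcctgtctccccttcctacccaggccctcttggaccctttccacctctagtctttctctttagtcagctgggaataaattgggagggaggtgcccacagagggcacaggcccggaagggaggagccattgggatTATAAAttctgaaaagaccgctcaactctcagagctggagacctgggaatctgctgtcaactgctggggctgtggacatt
The Lypd3 window held 2 GC boxes, starting 199 and 125 bases before the annotated start, and no AP-1 motif or TATA box. The Plaur window held 1 AP-1 motif, starting 69 bases before the start, and 3 GC boxes at 111, 105 and 100 bases, of which the first pair abut and the last pair share 1 base. The Ly6g6c window held 1 TATA box, starting 30 bases before the start, and neither of the other motifs. Of all 32851 promoter windows in the table, 7.81% held the AP-1 motif, 13.6% the TATA box and 35.7% the GC box. A match is a description of these letters and was not tested as a binding site.

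All expression values below are log2 quantile-normalized intensities, and differences are SCC minus WT on that scale. A gene was called when its adjusted p in limma, over all tested probes, was below 0.05 and the difference was at least 2-fold. Of the 9 genes other than Lypd3, 3 were called higher in SCC (Ly6d, Ly6g6c and Plau), 2 were called lower (Slurp1 and Gpihbp1) and 4 were not called (Ly6a, Ly6c1, Ly6e and Plaur). Among all 15586 tested genes, 11.6% were called higher and 13.4% lower, 24.9% in all, and among all 30374 tested probes 9.92% were called higher and 13% lower, 22.9% in all. In 4 of the 9 genes the groups did not overlap, against 41.4% of all tested genes. Because the genes were chosen with this contrast known, nothing is read from these shares. With slide as a fixed block 1 of the 9, Ly6d, was called higher and 2 were called lower.

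**Figure D1:**
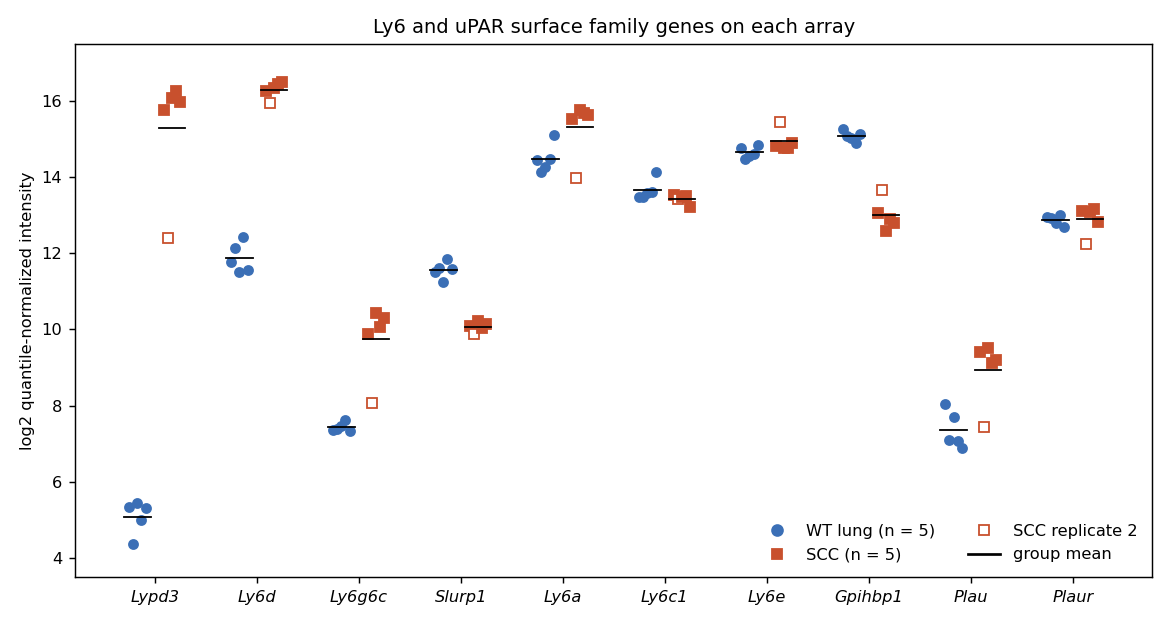
The value of each gene on each array is plotted as log2 quantile-normalized intensity on the vertical axis, with WT lungs as circles, SCCs as squares, SCC replicate 2 as an open square and group means as lines. Levels compare within a gene only, since each gene has its own probe, and SCC replicate 2 lies below the other SCC arrays for Lypd3, Ly6g6c, Ly6a, Plau and Plaur but close to them for Ly6d and Slurp1.

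Lypd3 encodes a GPI-anchored protein with LU domains that is found above the basal layer of stratified squamous epithelium. On the WT arrays its values were 5.33, 4.36, 5.44, 5.00 and 5.30 in replicates 1 to 5. On the SCC arrays they were 15.77, 12.40, 16.08, 16.27 and 15.99. Every SCC array was above every WT array, and SCC replicate 2 was the low one of the SCC arrays by more than 3 log2 units. The group means were 5.09 ± 0.43 (SD, n = 5) and 15.30 ± 1.63 (SD, n = 5), a difference of 10.22, and without SCC replicate 2 the difference was 10.94. Its size changed with the background correction: with normexp background correction it was 8.15.

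Ly6d, a GPI-anchored antigen of keratinocytes and of early B-lineage cells, had the largest difference of the 9 tested genes. Its values were 11.78, 12.13, 11.50, 12.43 and 11.55 on the WT arrays. Its SCC values were 16.25, 15.94, 16.33, 16.46 and 16.50. The groups were far apart, and SCC replicate 2 lay within 0.6 log2 units of the other SCC arrays. Its squamous list mean was lower, at 10.35 against 13.36 to 13.67, but the genes of that list differed on this array. Sprr1b was at 1.86 against 8.94 to 9.76 on the other tumours, whereas Krt1, at 5.81, lay among the other tumours at 5.23 to 6.65. Ly6d rose by 4.42 ± 0.20 (SE, n = 5 per group), which is 21.4-fold, with an adjusted p of 6.19e-07 in limma. The difference was 4.63 within slide 2, which held WT replicate 5 and SCC replicates 1 to 3 and was the 1 slide with both groups. Ly6d is also known from B-lineage cells, and 6 of 9 tested B cell genes were called lower in SCC and none was called higher; their part in the Ly6d values was not tested.

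Ly6g6c, a Ly6 gene of the major histocompatibility complex, gave 7.36, 7.39, 7.46, 7.63 and 7.33 on the WT arrays. In SCC it gave 9.89, 8.07, 10.43, 10.07 and 10.31. The groups did not overlap, but SCC replicate 2 lay nearer to the WT arrays than to the other tumours. The difference was 2.32 ± 0.40 (SE, n = 5 per group), or 4.99-fold, with an adjusted p of 0.00108 in limma. With slide as a fixed block, in which the contrast rests on slide 2 and so on a single WT array, the difference was 2.13 and the adjusted p was 0.10.

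Slurp1, a secreted Ly6 protein of keratinocytes that acts on nicotinic acetylcholine receptors, moved in the other direction. Its WT values were 11.50, 11.61, 11.26, 11.85 and 11.60. Its SCC values were 10.09, 9.88, 10.22, 10.04 and 10.15. The 2 groups did not overlap, and the 5 tumours, SCC replicate 2 included, lay within a narrow range. Slurp1 fell by 1.49 (SE 0.12, n = 5 per group), so WT was 2.80-fold higher, with an adjusted p of 1.52e-05 in limma, and the difference within slide 2 was -1.54.

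The changes of the 3 epithelial genes were then set against the mean of the 22 squamous genes on each array, which was 6.75 higher in SCC. Relative to that list, the difference of Ly6d was -2.33, that of Ly6g6c was -4.43 and that of Slurp1 was -8.24. The exact two-sided permutation p for Ly6d, adjusted over the 10 such pairs examined, was 0.0397. Before adjustment, 0.00794 is the smallest p the design allows. For Ly6g6c and Slurp1 no p is given, since their difference from the list had to separate the groups. Ly6g6c varied less over all 10 arrays than the gap between the groups in the list mean. Slurp1 fell and the list rose without overlap. The Ly6d p is not read as a difference from the list, since part of the list was at background in WT. With the 13 squamous genes that were well above background on all 10 arrays, the relative difference of Ly6d was -1.20. Its adjusted exact p was 0.0529, and the relative differences of Ly6g6c and Slurp1 were -3.30 and -7.10. With normexp background correction the relative difference of Ly6d was -0.56, with an adjusted exact p of 0.310.

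SLURP1 acts on nicotinic receptors, so the subunit genes were examined. Of 16 listed, 8 were tested, 2 were called higher and none was called lower, against 11.6% and 13.4% of all tested genes. The 2 were Chrna5 and Chrna7, chosen for mention after their values were seen. Neither was well above background on any WT array, so both entered the test only through SCC and could not have been called lower. The SCC mean was at least 3.96-fold higher for Chrna5 and at least 1.94-fold higher for Chrna7, a bound under the 2-fold of a call. Chrnb1 passed the adjusted p downward at less than 2-fold (-0.57), and without SCC replicate 2 Chrna10 was called lower, at -1.79 (adjusted p 0.0435 in limma). SCC replicate 5 was the low array for Chrna10, at 2.29 against 5.19 to 5.70 on the other tumours. The median difference of the 8 tested subunits was -0.18, against -0.04 for all tested genes.

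Proteins reported to bind or work with LYPD3 include the disulfide isomerases AGR2 and AGR3, the α6β4 integrin and laminin subunits. Of 10 such genes tested, 3 were called higher and 1 was called lower, against 11.6% and 13.4% of all tested genes. The median difference was 0.09. Agr2 rose by 7.95 (adjusted p 1.40e-05 in limma) and Agr3 fell by 1.56 (adjusted p 0.0198 in limma). On the SCC arrays Agr2 was at 12.62, 15.73, 11.84, 12.95 and 13.66, so SCC replicate 2, the low array for Lypd3, was the high array for Agr2. Itgb4, the hemidesmosomal integrin subunit, rose by 3.61, and its partner Itga6 had a difference of 0.26 that was not called. The third gene called higher was the laminin subunit Lama1, at 2.17, which was well above background on 3 of the 5 WT arrays. It entered the test only through SCC, and its difference rests partly on WT values at background.

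**Figure D2:**
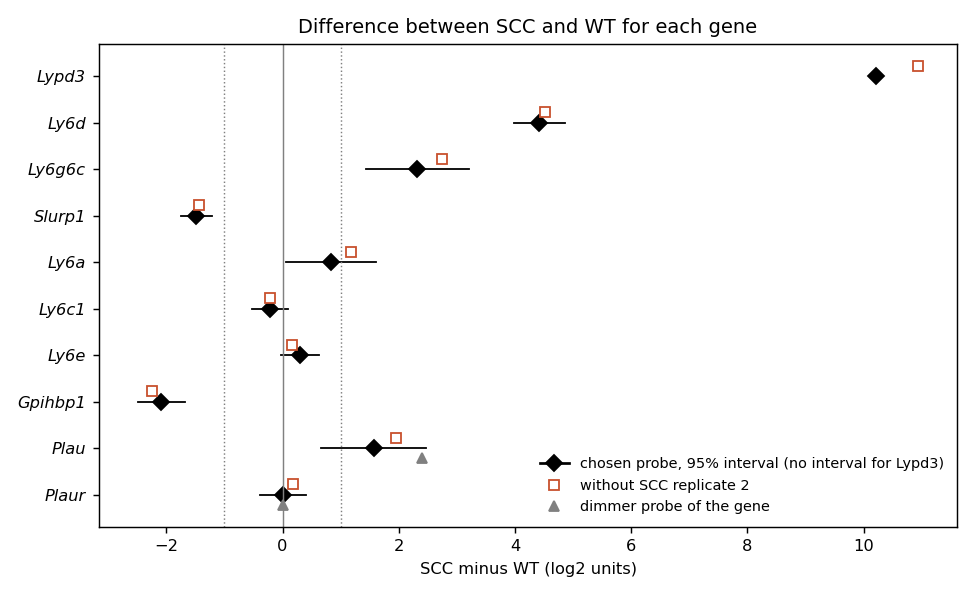
The difference between SCC and WT is plotted for each gene in log2 units on the horizontal axis, with the 95% interval from limma as a line for every gene but Lypd3, the value without SCC replicate 2 as an open square and any dimmer probe of the same gene as a triangle, that of Plau being not well above background in WT. Dotted lines mark a 2-fold difference, and Ly6a is the gene that crosses that line when SCC replicate 2 is left out, from 0.84 to 1.18.

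Ly6a, Ly6c1 and Ly6e belong to the part of the family known from endothelium, leukocytes and interferon-treated cells. None of the 3 was called, while the endothelial list fell by a median of 2.10. Ly6a encodes Sca-1, a marker of mouse hematopoietic stem cells that lung endothelium also carries. Its WT values were 14.44, 14.14, 14.27, 14.48 and 15.10. Its SCC values were 15.54, 13.97, 15.77, 15.69 and 15.64. Of the tumours, 4 were above every WT lung, and SCC replicate 2 was below every WT lung. The difference was 0.84 ± 0.35 (SE, n = 5 per group) with an adjusted p of 0.0696 in limma, and the 95% interval ran from 0.06 to 1.62. Without SCC replicate 2 it was 1.18 with an adjusted p of 0.000528, a call. Within slide 2, and so with slide as a fixed block, it was -0.002, since WT replicate 5 was the high WT array and SCC replicate 2 the low tumour and both were on that slide.

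Ly6c1, an antigen of endothelial cells and of some monocytes and T cells, gave 13.48, 13.48, 13.58, 13.60 and 14.13 on the WT arrays. In SCC it gave 13.53, 13.44, 13.48, 13.51 and 13.22. Apart from WT replicate 5, high, and SCC replicate 5, low, all values lay within 0.2 log2 units. The difference was -0.22 ± 0.14 (SE, n = 5 per group), with an adjusted p of 0.209 in limma and a 95% interval from -0.53 to 0.09, and without WT replicate 5 it was -0.10. With slide as a fixed block the difference was -0.65 with an adjusted p of 0.0423, still under 2-fold.

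Ly6e, an interferon-inducible member expressed in many cell types, gave 14.78, 14.48, 14.55, 14.62 and 14.83 on the WT arrays. On the SCC arrays it gave 14.83, 15.46, 14.78, 14.78 and 14.89. The groups overlapped, and SCC replicate 2 was the high one, the opposite of its place for Ly6a. The difference was 0.29 ± 0.15 (SE, n = 5 per group), with an adjusted p of 0.123 in limma and a 95% interval from -0.03 to 0.62, and without SCC replicate 2 it was 0.17. Scaling by the 75th percentile gave 0.41 with an adjusted p of 0.00949, also under 2-fold. That scaling moves the median of all tested probes from -0.09 to 0.03, a shift of 0.12, and the share of calls that were higher in SCC from 43.3% to 53.2%.

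Gpihbp1 encodes the GPI-anchored protein of capillary endothelium that captures lipoprotein lipase and carries it to the vessel lumen. Its WT values were 15.27, 15.09, 15.04, 14.90 and 15.15. Its SCC values were 13.07, 13.65, 12.59, 12.91 and 12.80. The groups did not overlap, and SCC replicate 2 was the highest of the tumours, as it was for the endothelial list. Gpihbp1 fell by 2.08 (SE 0.18, n = 5 per group), so WT was 4.24-fold higher, with an adjusted p of 2.37e-05 in limma, and the difference within slide 2 was -2.04.

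These 4 genes were compared with the endothelial list by subtracting the mean of its 20 genes on the same array, which was 2.07 lower in SCC. Relative to the list, the difference of Gpihbp1 was -0.01, with a 95% interval from -0.16 to 0.14 and an exact two-sided permutation p of 0.857. The interval excludes a relative change of 0.2 log2 units in either direction. Relative to the same list, Ly6a was higher in SCC by 2.91, Ly6e by 2.37 and Ly6c1 by 1.85. For Ly6e and Ly6c1 no p is given, since their difference from the list had to separate the groups. Each varied less over all 10 arrays than the gap between the groups in the list mean. For Ly6a the exact permutation p adjusted over the 10 pairs was 0.0132. Ly6a itself overlapped between the groups, so this value rests mainly on the fall of the list. Other cell types that can carry these antigens also differed between the groups. Of 15 monocyte and macrophage genes tested, 5 were called higher and none was called lower, but 4 passed the adjusted p downward at less than 2-fold: Ccr2 (-0.90), Cx3cr1 (-0.99), Marco (-0.75) and Csf1r (-0.50). In this list Mrc1 (0.65) passed upward at less than 2-fold, and without SCC replicate 2 Cx3cr1 was called lower, at -1.24, and Adgre1 higher, at 1.05. Of 13 neutrophil genes 7 were called higher and none lower, and of 12 T cell genes 7 were called lower and none higher, where without SCC replicate 2 Il7r was called higher, at 1.28. The mean over the monocyte and macrophage list ran from 11.45 to 11.88 on the WT arrays and from 11.65 to 12.53 on the SCC arrays. Their part in the Ly6 values was not tested.

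**Figure D3:**
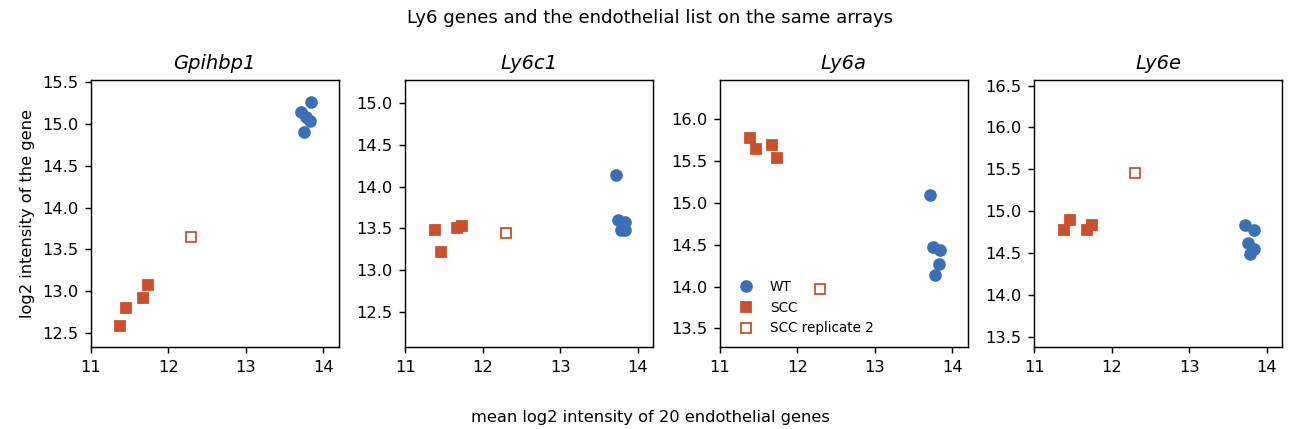
The log2 intensity of Gpihbp1, Ly6c1, Ly6a and Ly6e on each array is plotted against the mean log2 intensity of 20 endothelial genes on the same array, with WT as circles, SCC as squares and SCC replicate 2 as an open square. Each vertical axis spans the same number of log2 units, and Gpihbp1 falls together with the list while Ly6c1 and Ly6e stay near their WT values and Ly6a lies above its WT values on 4 of 5 tumours.

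Interferon-response genes were listed because Ly6a and Ly6e respond to interferon. Of 18 tested, 5 were called higher in SCC and 1 was called lower, against 11.6% and 13.4% of all tested genes. The median difference was 0.26, and without SCC replicate 2 the count called higher was 8. The 4 with the largest differences were Oasl1, higher by 4.68, the transcription factor Irf7, by 3.34, the ubiquitin-like modifier Isg15, by 2.14, and the oligoadenylate synthetase Oas1a, by 1.76. The gene called lower was Ifit2 (-1.20), and Ifit3 (-0.80), Xaf1 (-0.75) and Bst2 (-0.52) passed the adjusted p downward at less than 2-fold. Ifit1 (0.88) and Rsad2 (0.98) passed it upward at less than 2-fold. The mean over this list was 10.74 on WT replicate 5 against 10.10 to 10.26 on the other WT arrays, and 10.01 on SCC replicate 2 against 11.14 to 11.35 on the other tumours. WT replicate 5 was the high WT array for Ly6a, Ly6c1 and Ly6e. SCC replicate 2 was the low tumour for Ly6a, but it was the high tumour for Ly6e, at 15.46, and lay among the other tumours for Ly6c1, at 13.44. The part of interferon-response genes in the values of these 3 genes was not tested.

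Genes that handle lipoprotein lipase and its products surround Gpihbp1 in function. Of 18 tested, 3 were called higher and 3 lower, against 11.6% and 13.4% of all tested genes, and the median difference was 0.07. The lipase gene Lpl itself had a difference of 1.11 with an adjusted p of 0.125 in limma. SCC replicate 2 was at 12.46, below every WT lung at 13.62 to 14.06, and the other 4 tumours were at 15.26 to 15.65, above them. Without SCC replicate 2 the difference was 1.72 with an adjusted p of 3.84e-06, a call. Among the genes that fell were Cav1, the coat protein of endothelial caveolae, by 2.47, Lipg, the endothelial lipase, by 2.53 and the receptor gene Vldlr by 1.57. Those that rose were Apoc2, the lipase cofactor, by 2.03, Fabp4, a fatty-acid carrier, by 1.92 and the heparan sulfate proteoglycan gene Sdc1 by 1.72.

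Of the urokinase pair the ligand was called and the receptor was not, and the difference between them was not tested. Plau encodes urokinase, the protease that activates plasminogen. Its values were 8.05, 7.09, 7.71, 7.08 and 6.88 on the WT arrays. On the SCC arrays they were 9.40, 7.43, 9.51, 9.12 and 9.21. The groups overlapped through SCC replicate 2, which lay among the WT values, while the other 4 tumours were above every WT lung. The difference was 1.57 ± 0.40 (SE, n = 5 per group), or 2.97-fold, with an adjusted p of 0.00969 in limma. With slide as a fixed block it was 1.90 with an adjusted p of 0.146. The dimmer second probe of Plau was not well above background on any WT array and gives only a bound, an SCC mean at least 1.35-fold higher.

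Plaur encodes uPAR, the GPI-anchored receptor for urokinase. Its WT values were 12.95, 12.92, 12.80, 13.01 and 12.70. Its SCC values were 13.11, 12.24, 13.10, 13.17 and 12.83. The groups overlapped, with SCC replicate 2 below every WT lung and 3 tumours above every WT lung. The difference was 0.01 ± 0.18 (SE, n = 5 per group), with an adjusted p of 0.952 in limma and a 95% interval from -0.38 to 0.41, so a 2-fold change lay outside the interval. The second Plaur probe gave a difference of 0.01 with an adjusted p of 0.960. Leaving out SCC replicates 2 and 5 together gave 0.25 with an adjusted p of 0.0332, under 2-fold.

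Both genes are known from stromal and inflammatory cells, whose marker lists moved in opposite directions. Of 12 fibroblast genes 6 were called lower and none was called higher, but the collagen genes Col1a1 (0.66) and Col3a1 (0.53) passed the adjusted p upward at less than 2-fold. The list mean fell by 0.96, while the mean over the neutrophil list rose by 1.40. Relative to the fibroblast list, the difference of Plau was 2.53 with an exact permutation p adjusted over the 10 pairs of 0.0227. Plaur was 0.97 higher relative to the fibroblast list, with an adjusted exact p of 0.0529, and 1.38 lower relative to the neutrophil list, with an adjusted exact p of 0.0132. Without SCC replicate 2 the difference of Plaur relative to the fibroblast list was 1.26 and its adjusted exact p passed 0.05, as it did with normexp.

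Of 24 tested genes of the plasminogen system, 8 were called higher and 2 lower, against 11.6% and 13.4% of all tested genes, and the median difference was 0.20. Serpinb2, the inhibitor PAI-2, rose by 4.72 and was at 5.86 on SCC replicate 2 against 11.46 to 12.15 on the other tumours and 5.32 to 6.98 on the WT arrays. St14, the epithelial membrane protease matriptase, rose by 2.09 with an SE of 0.11, and Hpn, another epithelial membrane protease, by 1.21, which became 0.80 and was not called without SCC replicate 2. The integrin subunits Itgam and Itgb2, which form the leukocyte integrin Mac-1, rose by 2.50 and 1.11, and Itgav, a subunit of vitronectin receptors, rose by 1.10. On SCC replicate 2 Itgam was at 9.02, within its WT range of 8.78 to 9.88. Itgb2 was at 12.32 there, below every WT lung at 12.46 to 12.75. Plat, tissue-type plasminogen activator, rose by 1.43, with SCC replicate 2 at 11.17, within the WT range of 11.04 to 12.02. Eno1, a glycolytic enzyme that also binds plasminogen, rose by 2.15. Vtn, the matrix protein vitronectin that uPAR binds, fell by 2.30 and Fpr2, a formyl peptide receptor, by 1.18. With slide as a fixed block 1 of the 24 was called higher and 1 lower.

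**Figure D4:**
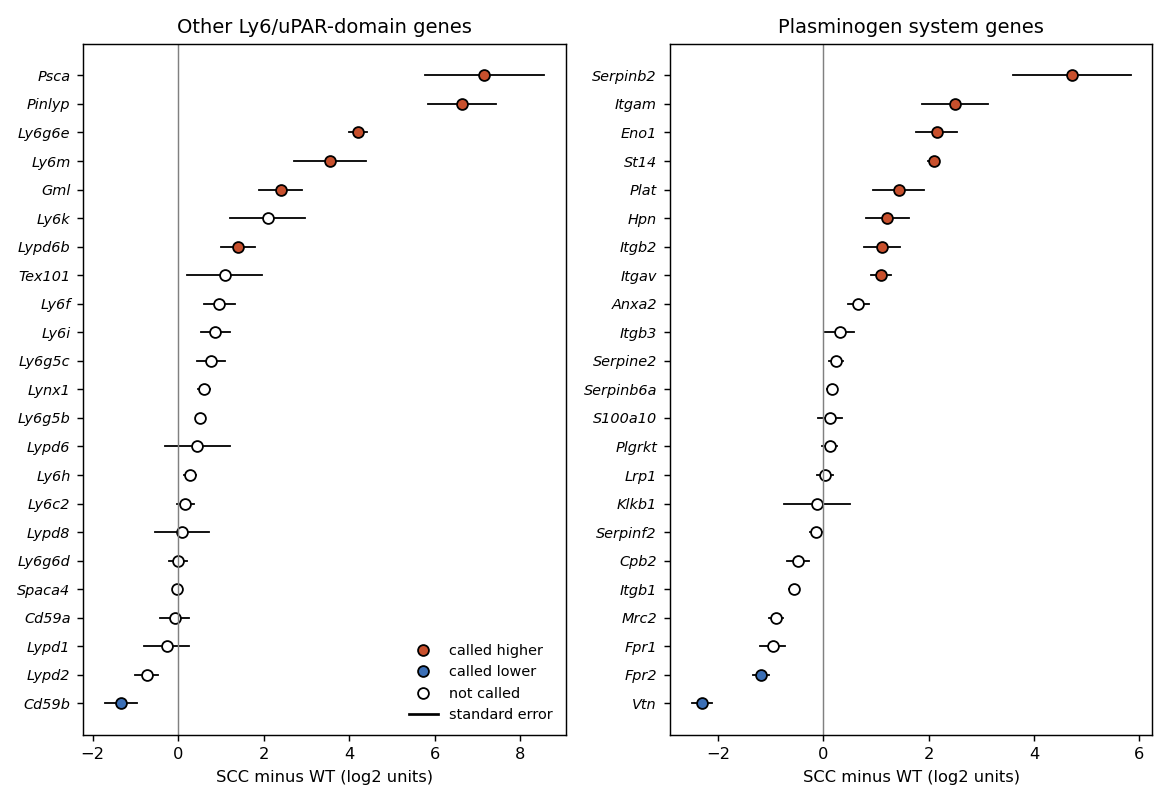
The difference between SCC and WT in log2 units is plotted for the 23 tested genes with LU domains outside the 10 chosen genes, at left, and for the tested plasminogen system genes, at right, with 1 of the 24 left out of the plot. Lines give the standard error from limma, and filled points were called, 6 higher and 1 lower at left and 8 higher and 2 lower at right, and open points were not called.

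The other mouse genes with LU domains were read as a list. Of 37 listed, 30 had a probe and 23 were tested. Of these, 6 were called higher and 1 lower, against 11.6% and 13.4% of all tested genes. The median difference was 0.60, against -0.04 for all tested genes. With slide as a fixed block 2 were called higher, and without SCC replicate 2 there were 9. Psca, prostate stem cell antigen, rose by 7.16 and stood at 13.37, 6.01, 13.97, 13.90 and 13.56 on the SCC arrays against 4.76 to 5.25 in WT. Ly6g6e, a neighbour of Ly6g6c in the histocompatibility region, rose by 4.20, with 12.31 on SCC replicate 2 and 12.84 to 13.21 on the other tumours. In SCC replicate 2, then, Ly6g6e and Ly6d were near the other tumours while Psca was near WT.

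Ly6m rose by 3.56 and was at 5.71 on SCC replicate 2, inside its WT range of 5.52 to 6.19. Pinlyp rose by 6.63 from a probe well above background on 2 of the 5 WT arrays. It entered the test only through SCC, and its difference rests partly on WT values at background. Gml, not well above background on any WT array, also entered the test only through SCC. It was at least 1.63-fold higher there, a bound under the 2-fold of a call. Lypd6b rose by 1.40, with SCC replicate 2 the high tumour at 12.68 against 10.25 to 10.89. Cd59b, a complement inhibitor gene, fell by 1.34, a call not made with 75th percentile scaling or normexp, and its paralog Cd59a had a difference of -0.09 with an adjusted p of 0.848 in limma.

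Ly6k, named after its values were seen, divided the tumours in another way. It was at 12.02, 11.67 and 11.55 on SCC replicates 1, 3 and 5, and at 7.94 and 7.71 on SCC replicates 2 and 4, against 7.92 to 8.20 in WT. Its difference of 2.10 was not called (adjusted p 0.0718 in limma), and without SCC replicate 2 it was 2.66 and called (adjusted p 0.0196 in limma). The close relatives of Ly6a and Ly6c1 on chromosome 15 were not called either, with 0.96 for Ly6f, 0.87 for Ly6i and 0.17 for Ly6c2. Ly6f and Ly6i shared the low SCC replicate 2 of Ly6a, and without it their differences were 1.29 and 1.21, both calls (adjusted p 0.00158 and 8.74e-05 in limma). Probe sequences were not part of the files used here, so binding of a probe to more than 1 of these similar transcripts was not checked.

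Most of these proteins need a GPI anchor, so the genes that build and attach it were counted. Of 28 tested, 2 were called higher, Piga by 1.88 and Pgap1 by 1.50, and none was called lower. Among all tested genes 11.6% were called higher and 13.4% lower. A further 12 passed the adjusted p upward and 3 downward at less than 2-fold, and the median difference was 0.29.

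The genes most like each of the 10 across the arrays were named by Pearson's r over 10 arrays among 14109 genes, as a description. The arrays form 2 groups, and r takes no account of the size of the difference between them, which was 10.22 for Lypd3 and 2.28 for Bicdl2, its best match. For Lypd3 they were Bicdl2, Rab25 and Psapl1 (r = 0.998 each), for Ly6d Flad1, Hpse and Trp63, the basal-cell regulator p63, (0.997, 0.995 and 0.995), and for Ly6g6c Adap1, Gna15 and Wsb2 (0.999, 0.997 and 0.997). For Slurp1 they were Pcdh19, Ptprcap and Aldh1a2 (0.989, 0.989 and 0.986), and for Gpihbp1 Zeb1, Cers4 and Tspan13 (0.998, 0.998 and 0.997). For Ly6a they were its neighbour Ly6f, Ass1 and Zfp276 (0.978, 0.976 and 0.976), for Ly6c1 Sp1 and the interferon-induced GTPase genes Gbp6 and Irgm2 (0.975, 0.906 and 0.905), and for Ly6e Ffar4, Mia3 and Krt8 (0.980, 0.978 and 0.971). For Plau they were Lgmn, Slbp and Soat1 (0.984, 0.979 and 0.975), and for Plaur Fxyd5, Wdr20 and Akirin2 (0.962, 0.961 and 0.957).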

How the data were processed

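RNA of 5 WT lungs and 5 SCCs had been hybridised to 10 arrays. Of the 3 slides, slide 1 carried 4 WT arrays (replicates 1 to 4), slide 2 carried the fifth and 3 tumours (replicates 1 to 3), and slide 3 carried the last tumours (replicates 4 and 5). According to the headers and labels, the authors read the scans with Agilent Feature Extraction 12. They deposited spot intensity values after background subtraction and a matrix of log2 values, which their methods give as quantile-normalized. Here control and outlier-flagged spots were left out, log2 processed intensities were averaged per probe and the 41174 probes were quantile-normalized. No probe was saturated. The 30374 probes well above background on at least 4 of 5 arrays of a group were tested two-sided by limma (version 3.58.1, R version 4.3.3; lmFit, then eBayes) without covariates and with Benjamini-Hochberg adjustment over all of them. Calls required 2-fold or more and an adjusted p below 0.05. The one-way analysis of variance of the authors' methods was run as an alternative, called the methods' t-test, at the unadjusted threshold of 0.01 that heads the authors' gene list and after adjustment. RefSeq (GRCm38.p6) gave a symbol to 28223 probes (68.5%) by accession. The file headers name another build, so coordinates are those of the promoter table. A bound for a probe below background in WT set the SCC mean against a WT mean in which each array counted with its dimmest signal still well above background, or with the probe's own where that was higher. Differences relative to a list subtracted the list mean of the array and used the exact permutation over all splits of the 10 arrays, adjusted over the 10 pairs.

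The 10 genes and the gene lists were chosen with earlier results of these data known. Named genes were the 10, every called gene of the LU-domain and plasminogen lists, up to 4 called genes with the largest differences, among those well above background on all 10 arrays, of each other list that is not a marker list, and the 3 most correlated genes of each of the 10. Where a gene was named outside this rule, it was chosen after its values were seen. Such genes were Lpl, the macrophage, T cell and collagen genes, the interferon genes that fell, Ifit1, Rsad2 and the nicotinic subunits. Others were Krt1, Sprr1b, Itga6, Lama1, Sdc1, Vldlr, Cd59a, Ly6f, Ly6i and Ly6c2. Alternatives were the deposited log2 matrix, 75th percentile scaling, normexp (offset 50, on median intensities, since the files used here hold no mean ones), filters on dim probes, the replicate number or slide as a block, array weights, other probes and leaving out arrays. The labels do not say that replicates are separate animals, so p-values measure the spread between these samples, and their number limits the precision. On simulated data with the spread of these probes the fit recovered 159 of 200 probes changed by 2 log2 units (79.5%), with 5 false calls among 30267 probes. The simulation drew independent normal values with the same spread in both groups, no slide effect and no outlying array. Its figures therefore need not hold for these arrays. Plots were drawn with matplotlib 3.10.9. Lkb1 was searched under its symbol Stk11, and since no accession in the files paired a probe with it, it is not analysed here. The values of 1 plasminogen system gene are not reported here, although it is counted in that list.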

Additional observations from a re-analysis of the deposited data

Results flagged for a closer look

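Within each group of 5 arrays, a value was looked at again when its gap to the nearest other array was more than 0.71 of the whole range of the group. Of the 50 groups examined (10 genes and 15 lists in 2 tissues) 14 met this, where chance gives about 1 in 20, and 11 of the 14 lay on SCC replicate 2. That array was low for Lypd3 (0.871 of the range), Ly6a (0.871), Plau (0.81) and Ly6g6c (0.771), and high for Ly6e (0.832). It was also low in the mean of the neutrophil list (0.914), the squamous list (0.905), the interferon-response list (0.842), the lipoprotein lipase list (0.816), the plasminogen list (0.778) and the monocyte and macrophage list (0.763). WT replicate 5 was high for Ly6c1 (0.818) and for the interferon-response list (0.756), and SCC replicate 5 was low for Ly6c1 (0.717).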

How the results depend on the processing

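Under the alternatives run, Ly6d, Slurp1 and Gpihbp1 stayed called in the same direction, with differences from 4.33 to 4.63, -1.56 to -1.38 and -2.25 to -1.98, and Ly6e and Ly6c1 stayed uncalled. The 6954 probes called (3014 higher, 3940 lower) became 3969 (1909 and 2060) with normexp, 14878 (6790 and 8088) with the adjusted p alone and 2988 (1402 and 1586) with slide as a fixed block, of which 2640 were shared, and ran from 6385 to 8135 when 1 array was left out, highest without SCC replicate 2. The fixed slide block rests on a single WT array. Under it 1 of the 9 genes was called higher in place of 3, with Ly6g6c at 2.13 and Plau at 1.90 losing the call, Ly6a was at -0.0020, 2 LU-domain relatives were called higher in place of 6, and 1 plasminogen gene was called in each direction in place of 8 and 2. Leaving out 1 array gave 3 to 4 of the 9 called higher and 2 to 2 lower, 6 to 9 LU-domain relatives and 6 to 7 plasminogen genes called higher, and 2 to 3 plasminogen genes lower.

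Ly6a was called with array weights (1.20), without SCC replicate 2 (1.18) and without SCC replicates 2 and 5 (1.18). The 1 LU-domain relative called lower, Cd59b, was 0 genes with 75th percentile scaling, normexp or the methods' t-test unadjusted, and the adjusted p alone gave 2 genes. The count was also 0 with the second brightest probe, but that probe of Cd59b was not tested. Plasminogen genes called higher were 5 with the methods' t-test unadjusted, and those lower 5 with the adjusted p alone. Lypd3 was 8.15 with normexp and 9.97 to 10.94 with 1 array left out. Plaur, near 0, ran from -0.056 to 0.18 with 1 array left out and changed sign without WT replicate 3 (-0.0052), WT replicate 5 (-0.028) and SCC replicates 1 (-0.041), 3 (-0.037) or 4 (-0.056). Gpihbp1 relative to the endothelial list ran from -0.048 to 0.021, positive without WT replicates 1 (0.021) or 5 (0.021) and SCC replicates 3 (0.013) or 4 (0.0035). Ly6d relative to the squamous list lost its call with normexp (-0.56) and with genes above background on all arrays (-1.20), an alternative added after seeing the data. Plaur relative to the fibroblast list passed with normexp (0.95) and without SCC replicate 2 (1.26) or 2 and 5 (1.27). The causes were not tested. Replicate numbers did not pair the samples, with correlations of deviations from -0.126 to -0.029, and the replicate block gave 6571 probes called.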
